A study of Rattus norvegicus with 8 samples.

Results

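The genes described here are 10 regulators of the G1 phase of the cell cycle, chosen by gene symbol: the inhibitors Cdkn1a, Cdkn1b, Cdkn1c, Cdkn2a, Cdkn2b and Cdkn2c, the kinases Cdk4 and Cdk6, the cyclin Ccnd1 and the retinoblastoma gene Rb1. Each symbol matched 1 row of the data, so that the set holds 10 of the 32883 genes counted, and all 10 had enough reads to be tested. They were measured by RNA-seq in primary nucleus pulposus (NP) cells, the cells at the soft centre of the disc between vertebrae, taken from adult Sprague Dawley rats of 3 to 6 months. Both groups were grown in DMEM with 10% serum, transduced with lentivirus and put under puromycin. One group received a control hairpin (SIRT6Ctrl/ShCtrl, here Sirt6-Ctrl, libraries S1 to S4), and the other a mixture of ShSirt6 clones (SIRT6KD/ShSirt6, here Sirt6-KD, libraries S5 to S8). The comparison asks how the G1 regulators differ once Sirt6, a nuclear NAD-dependent deacetylase, is depleted. The knockdown was of a pool of hairpins against a single control hairpin, so an effect of Sirt6 loss and one of the hairpins themselves cannot be told apart. Control and knockdown libraries carry no shared rat number, and no pairing was used, although the series text speaks of cells of 4 rats and of matching controls. The p-values therefore measure the spread between these libraries. A hypoxic culture step is described for protein samples, and whether the RNA samples went through it is not given in the sources used here.

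A cell passes from G1 into S phase once the retinoblastoma protein has been phosphorylated by cyclin D bound to CDK4 or CDK6 and then by cyclin E bound to CDK2, which frees E2F factors to transcribe replication genes. INK4 inhibitors (p16 from Cdkn2a, p15 from Cdkn2b, p18 from Cdkn2c) bind CDK4 and CDK6 and keep cyclin D away. CIP/KIP inhibitors (p21 from Cdkn1a, p27 from Cdkn1b, p57 from Cdkn1c) bind the assembled cyclin-CDK complexes, and p21 and p16 are commonly measured as signs of senescence, the lasting arrest that also occurs in ageing disc cells. The protein p19ARF, made from a second reading frame of Cdkn2a, restrains the ubiquitin ligase MDM2.

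Libraries held 31994838 to 40124813 reads on genes and ERCC spike-ins, synthetic RNAs of known sequence. The spike-ins took 6.27% of the reads in S1 and 9.80% in S2, against 2.97% to 3.08% in S3 and S4 and 2.15% to 2.47% in Sirt6-KD, so S1 and S2 stand apart and results are also given without them. Sirt6 itself was measured at 47.6 to 56.4 CPM (reads of a gene per 1000000 reads of the library, TMM-normalized) in Sirt6-Ctrl and at 19.2 to 21.8 CPM in Sirt6-KD, a difference of -1.35 ± 0.13 on the log2 scale (SE; edgeR adjusted p = 0.000713). Of 16 listed NP markers, 10 had a named row, among them Acan (4.54 to 55.7 CPM in Sirt6-Ctrl and 9.80 to 18.7 CPM in Sirt6-KD), and their summed level was 233 to 263 CPM in Sirt6-Ctrl and 218 to 237 CPM in Sirt6-KD. Krt8 and Car3 were called lower (log2 differences of -1.32 and -2.70, edgeR adjusted p = 0.0441 and 0.0127), and Car12, not called, was at 8.87 to 74.6 CPM in Sirt6-Ctrl and 66.3 to 89.3 CPM in Sirt6-KD. With Car12 included, the summed levels of the groups overlapped. The other 9 markers, a sum made after these values were seen, came to 169.996 to 250.04 CPM in Sirt6-Ctrl and 138 to 153 CPM in Sirt6-KD, without overlap. Car12 had a positive log2 fold change, so leaving it out favoured such a gap, and no conclusion on NP markers is drawn from it. Of these 9, Sox9 and Foxa2 also had positive log2 fold changes, not called, and the rest had negative ones. Every Sirt6-KD library also lay below every Sirt6-Ctrl library for 15.6% of all single genes tested. Col2a1, Krt18, Krt19, T (also Tbxt) and Shh were not analysed here. Fibroblast and annulus markers summed to 13591 to 25544 CPM in Sirt6-Ctrl and 8253 to 17621 CPM in Sirt6-KD (7 of 8 with a row, 2 called lower). Col1a1, not called, made up most of this sum, with 13286 to 25213 CPM in Sirt6-Ctrl and 7961 to 17465 CPM in Sirt6-KD. The 2 called lower were Dcn and Scx (log2 fold changes of -1.71 and -1.20). Of those not called, only Pdgfra had a positive log2 fold change. Leukocyte markers summed to 11.9 to 29.7 CPM in Sirt6-Ctrl and 15.0 to 23.8 CPM in Sirt6-KD (3 of 6 with a row, neither direction called). Tek, the 1 endothelial marker of 5 with a row, was at most 0.592 CPM in any library, and no erythroid marker had one. Their part in the results below was not tested, and in bulk RNA fewer cells of a type and less RNA per cell cannot be told apart.

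Across the 10 genes, 4 inhibitors fell in Sirt6-KD (Cdkn1a, Cdkn1c, Cdkn2a and Cdkn2b), and Cdk6 and Rb1 rose. A gene was called where edgeR's quasi-likelihood test over all genes gave an adjusted p under 0.05 and the groups differed more than 1.5-fold. The 2 genes called higher compare with 8.02% of the 13250 genes tested, and the 4 called lower with 10.7%. Without S1 and S2 the counts were 2 higher and 2 lower, where 5.71% and 5.0% of all genes were called, and with a correction for gene length 1 higher and 4 lower, where 4.85% and 12.7% were called. Cdkn1b, Cdkn2c, Cdk4 and Ccnd1 were not called. For 7 of the 10 genes the groups did not overlap (30.4% of all genes tested), with Sirt6-KD below Sirt6-Ctrl in 4 (15.6% of all genes) and above it in 3 (14.8%). The spread between libraries, as a share of the mean, was larger in Sirt6-Ctrl than in Sirt6-KD for all 10 genes. For Ccnd1 the groups were nearly equal (9.21% and 9.05%). For each of the 6 genes called, S1 and S2 were the 2 Sirt6-Ctrl libraries farthest from the Sirt6-KD mean, and for 5 of them S3 was the nearest. The shares of all genes tested with these patterns were not computed, so neither is read as particular to the 10 genes.

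**Figure D1:**
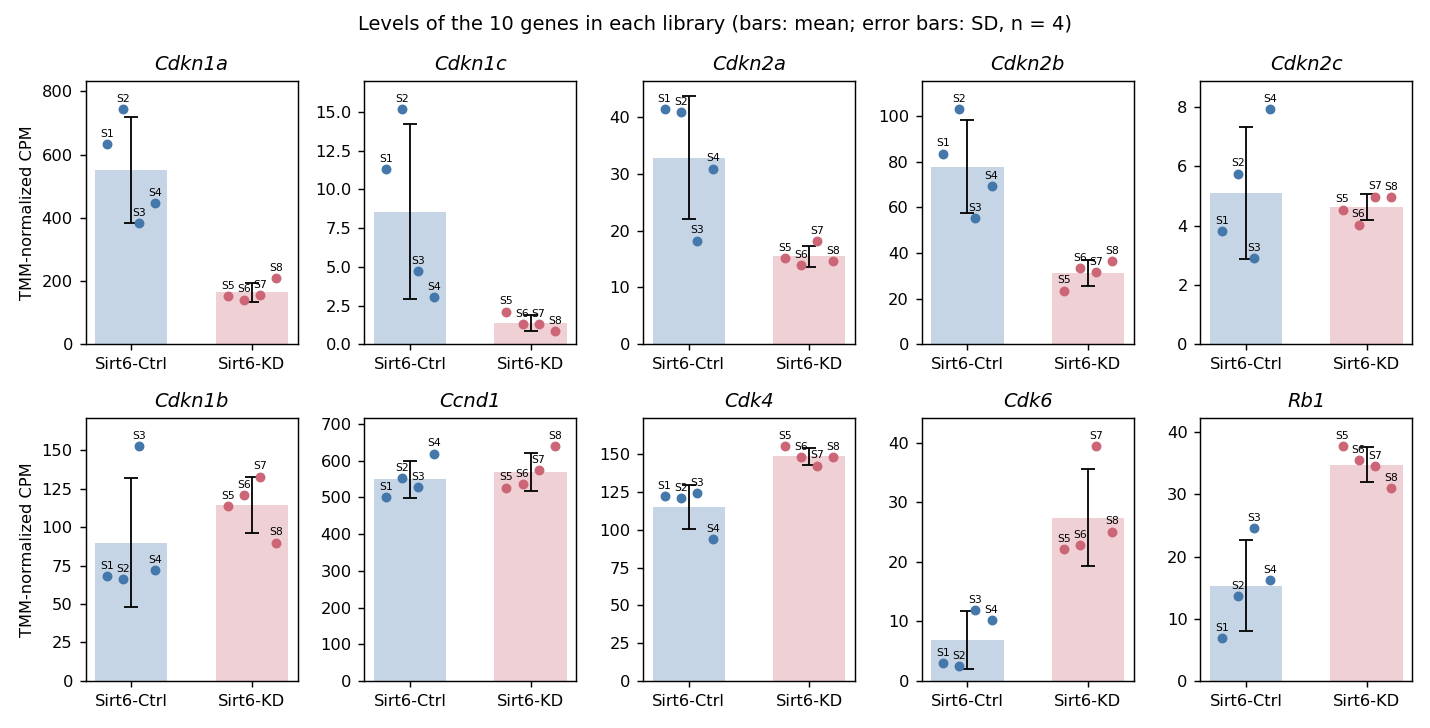
TMM-normalized CPM of the 10 genes in each library, with 1 panel per gene and its own axis from 0; points are libraries S1 to S8, bars group means and error bars SD (n = 4). Cdkn1a, Cdkn1c, Cdkn2a and Cdkn2b lay lower in every Sirt6-KD library than in any Sirt6-Ctrl library, and Cdk4, Cdk6 and Rb1 lay higher, while the groups overlapped for Cdkn1b, Cdkn2c and Ccnd1.

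Of the CIP/KIP inhibitors, Cdkn1a fell 3.36-fold. Its level was 634, 743, 382 and 445 CPM in S1 to S4 and 151, 141, 156 and 208 CPM in S5 to S8. The highest Sirt6-KD library, S8, was well below the lowest Sirt6-Ctrl library, S3. The means were 551 ± 167 and 164 ± 30.1 CPM (SD over 4 libraries each), a difference of -1.75 ± 0.23 on the log2 scale (SE; edgeR adjusted p = 0.00217). The call held with each library left out in turn, and without S1 and S2 the log2 fold change was -1.32 (adjusted p = 0.00367, edgeR). The 250 bases before the annotated start of Cdkn1a are shown with the other promoters of the genes that fell together, from RefSeq on the GRCr8 build (the reads were counted on Rnor_6.0). They held no match to any of the motifs searched, so the run carries no capitals.
Cdkn1a, chr20:7150682-7150931, plus strand: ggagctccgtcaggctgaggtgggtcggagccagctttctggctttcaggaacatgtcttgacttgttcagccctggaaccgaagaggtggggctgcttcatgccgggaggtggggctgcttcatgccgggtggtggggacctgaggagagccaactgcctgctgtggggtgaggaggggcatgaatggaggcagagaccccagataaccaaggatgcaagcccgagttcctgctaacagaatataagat

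Cdkn1c, an imprinted gene whose product p57 also acts in differentiation and growth control, had the largest fall of the 10, 6.22-fold, on few reads. It had 11.3, 15.2, 4.74 and 3.05 CPM in S1 to S4 and 2.11, 1.28, 1.28 and 0.83 CPM in S5 to S8, the last of these from 28 reads. S1 and S2 were far above S3 and S4, and S4 was not far above S5. The means were 8.57 ± 5.67 and 1.38 ± 0.54 CPM (SD over 4 libraries each), a difference of -2.64 ± 0.57 on the log2 scale (SE; edgeR adjusted p = 0.0115). Without S1 and S2 it was -1.49 and no longer called (adjusted p = 0.0703, edgeR), and limma-voom did not call it either (adjusted p = 0.0562).

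Cdkn1b, whose p27 holds resting cells out of the cycle and is controlled largely through protein turnover, was the CIP/KIP gene not called. It had 68.3, 66.5, 153 and 72.2 CPM in S1 to S4 and 114, 121, 133 and 90.0 CPM in S5 to S8. All Sirt6-KD libraries lay above S1, S2 and S4, and S3 lay above all of them. The means were 90.0 ± 42.0 and 114 ± 18.1 CPM (SD over 4 libraries each), with a log2 fold change of 0.35 (95% confidence interval -0.24 to 0.94, adjusted p = 0.381, edgeR). Without S3 the log2 fold change was 0.73 and Cdkn1b was called higher (adjusted p = 0.00604, edgeR), so its call depended on that library. Without S1 and S2 it was 0.03 (adjusted p = 0.955, edgeR).

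Both INK4 genes that lie side by side on chromosome 5 fell, and Cdkn2c, also on that chromosome, was not called. Cdkn2b had 83.6, 103, 55.4 and 69.3 CPM in S1 to S4 and 23.5, 33.2, 31.7 and 36.5 CPM in S5 to S8. The groups were clearly apart, at 77.8 ± 20.4 and 31.2 ± 5.53 CPM (SD over 4 libraries each). The log2 difference came to -1.32 ± 0.21 (SE; edgeR adjusted p = 0.00435), a 2.49-fold fall that was called with each library left out in turn and without S1 and S2 (-0.99, adjusted p = 0.0135, edgeR).

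Cdkn2a had 41.4, 40.9, 18.3 and 30.9 CPM in S1 to S4 and 15.2, 13.9, 18.1 and 14.7 CPM in S5 to S8. S3 lay just above the highest Sirt6-KD library, S7, so the groups were separated by a narrow gap. The means were 32.9 ± 10.9 and 15.5 ± 1.84 CPM (SD over 4 libraries each), a 2.12-fold fall, a difference of -1.09 ± 0.25 on the log2 scale (SE; edgeR adjusted p = 0.0160). It was not called without S1, S5 or S6 (log2 fold changes of -0.92, -1.08 and -1.04, adjusted p = 0.0542, 0.0520 and 0.0577, edgeR), nor without S1 and S2 together (-0.66, adjusted p = 0.0823, edgeR). Reads were counted per gene, so the transcripts of p16 and p19ARF, which differ in their first exon, were not separated.

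Cdkn2c had the lowest Sirt6-Ctrl mean of the 10 genes, 5.10 CPM, with 99 to 327 reads per library. It had 3.82, 5.75, 2.91 and 7.93 CPM in S1 to S4 and 4.54, 4.03, 4.98 and 4.97 CPM in S5 to S8. The Sirt6-KD libraries all fell inside the range of Sirt6-Ctrl. Its log2 fold change was -0.14 (95% confidence interval -0.99 to 0.71, adjusted p = 0.827, edgeR), an interval that includes changes past the 1.5-fold threshold in both directions.

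The promoters of the neighbouring pair that fell together are shown for comparison with that of Cdkn1a. Capitals mark GC boxes, the binding motif of SP1 and its relatives (GGGCGG on either strand), which 30.5% of 33469 RefSeq promoter windows of 250 bases held. Cdkn2a had 1 and Cdkn2b 3. The window of Cdkn2a is that of the 1 start site RefSeq's table lists, and Cdkn2a has a start site for each of its first exons.
Cdkn2a, chr5:109107957-109108206, minus strand: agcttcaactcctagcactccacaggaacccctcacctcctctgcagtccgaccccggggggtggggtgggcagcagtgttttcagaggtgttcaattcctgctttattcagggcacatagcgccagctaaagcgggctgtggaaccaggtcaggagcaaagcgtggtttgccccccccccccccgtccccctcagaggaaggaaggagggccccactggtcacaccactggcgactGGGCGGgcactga
Cdkn2b, chr5:109134856-109135105, minus strand: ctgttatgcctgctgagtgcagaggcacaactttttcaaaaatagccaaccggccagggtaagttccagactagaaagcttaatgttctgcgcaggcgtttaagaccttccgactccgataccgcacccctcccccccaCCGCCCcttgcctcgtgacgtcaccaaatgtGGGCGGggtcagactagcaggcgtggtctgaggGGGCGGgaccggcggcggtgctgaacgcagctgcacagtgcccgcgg

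The other motifs searched, on both strands, were an E2F site (TTTNNCGC, in 4.11% of windows), an AP-1 site (TGANTCA, 6.34%), a CCAAT box (CCAAT, 34.0%), a TATA box (TATAAA, 12.9%) and the E-box that MYC binds (CACGTG, 5.59%). None of them occurred in the windows of Cdkn1a, Cdkn2a, Cdkn2b, Cdkn2c or Rb1, and Cdkn1b had 2 CCAAT boxes. No matches overlapped each other. Of the 10 genes, 7 had a promoter entry, and Cdkn1c, Cdk6 and Ccnd1 had none. A match of letters is a description of the window and not evidence that a factor binds there.

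Among the kinases, Cdk6 rose 3.96-fold. It had 2.99, 2.54, 11.9 and 10.3 CPM in S1 to S4 and 22.1, 22.9, 39.5 and 25.1 CPM in S5 to S8. The Sirt6-Ctrl libraries split into a low pair, S1 and S2, and a higher pair, S3 and S4, and S7 stood above the other Sirt6-KD libraries. The means were 6.91 ± 4.84 and 27.4 ± 8.16 CPM (SD over 4 libraries each), a difference of 1.99 ± 0.49 on the log2 scale (SE; edgeR adjusted p = 0.0189). Without S1 and S2 the rise was smaller in size and still called (log2 fold change 1.32, adjusted p = 0.0175, edgeR). It was not called without S1 alone (1.75, adjusted p = 0.0534, edgeR) or without S7 (1.76, adjusted p = 0.0617, edgeR).

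Cdk4, the partner kinase with the same substrate, was not called. It had 122, 121, 124 and 93.6 CPM in S1 to S4 and 156, 148, 143 and 148 CPM in S5 to S8. Every Sirt6-KD library was above every Sirt6-Ctrl library, and S4 lay below the other Sirt6-Ctrl libraries. The means were 115 ± 14.4 and 149 ± 5.34 CPM (SD over 4 libraries each). The log2 fold change of 0.37 (95% confidence interval 0.09 to 0.64, adjusted p = 0.0573, edgeR) reached neither threshold. Over 16 alternatives Cdk4 was not called in any, but in some of them only the 1.5-fold threshold was missed. The adjusted p was below 0.05 with the length correction (0.0212, edgeR), DESeq2 (0.0256), limma-voom (0.0476) and median-of-ratios scaling (0.0496, edgeR). It was also below 0.05 without S3 and with the spike-in rows removed (edgeR). In these fits the log2 fold change was 0.38 (limma-voom) to 0.57 (length correction). In the remaining alternatives the adjusted p was above 0.05. Cdk4 overlaps Tspan31 in RefSeq, the strand setting of the counting is not given in the sources used here, and Tspan31 differed the other way (191 ± 38.5 CPM in Sirt6-Ctrl, 133 ± 5.20 CPM in Sirt6-KD, SD over 4 libraries each). RefSeq also lists 4 Cdk4 pseudogenes, so reads of the gene and of these copies may not be fully separated.

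Ccnd1, the cyclin that links growth factor signals to CDK4 and CDK6, had the lowest relative spread of the 10 among the Sirt6-Ctrl libraries. It had 501, 552, 528 and 619 CPM in S1 to S4 and 527, 536, 575 and 640.2 CPM in S5 to S8, and the groups overlapped over most of their range. The log2 fold change was 0.05 (95% confidence interval -0.24 to 0.34, adjusted p = 0.813, edgeR), an interval that stays inside the 1.5-fold threshold in both directions at this scaling.

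Rb1, the substrate on which the kinases and inhibitors converge, rose 2.27-fold. It had 6.84, 13.6, 24.6 and 16.2 CPM in S1 to S4 and 37.8, 35.6, 34.6 and 31.0 CPM in S5 to S8. The Sirt6-KD libraries lay close together and all above S3, the highest Sirt6-Ctrl library. The means were 15.3 ± 7.34 and 34.8 ± 2.81 CPM (SD over 4 libraries each), a difference of 1.18 ± 0.32 on the log2 scale (SE; edgeR adjusted p = 0.0254). Without S1 and S2 it was 0.78 (adjusted p = 0.0341, edgeR). It was not called without S5, S6 or S7 (log2 fold changes of 1.14, 1.17 and 1.18, adjusted p = 0.0710, 0.0694 and 0.0654, edgeR), nor after a correction of each library for gene length, at 0.68 (0.84 above the median over all genes, adjusted p = 0.0999, edgeR). Cdk6 and Rb1 span more of the genome, introns included, than the other 8 genes, and with the same correction Cdk6 remained called (1.65 above that median, adjusted p = 0.0186, edgeR), as did the 4 inhibitors that fell. Lpar6 lies within Rb1 and had 0.991 to 4.23 CPM in all libraries.

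The promoters of Cdk4, which held the E-box CACGTG 3 times, and of Rb1, which held 6 GC boxes, are shown with E-boxes and GC boxes in capitals. Myc, a factor that binds this E-box and whose choice here followed its values, rose from 98.4 ± 25.5 to 158 ± 24.8 CPM (SD over 4 libraries each). The log2 difference was 0.69 with an edgeR adjusted p of 0.0324, and Myc was not called without S1 and S2 (0.72, edgeR adjusted p = 0.0897). Sp1, of the GC box and also named after its values were seen, rose by 0.69 (edgeR adjusted p = 0.0292). It was not called without S1 and S2 either (0.50, edgeR adjusted p = 0.145). GC boxes lay before Cdkn2a and Cdkn2b, which fell, and before Rb1, which rose. They also lay before Cdkn1b, Cdkn2c and Cdk4, which were not called, and among genes with a promoter entry only Cdkn1a had none. These windows held 58.8% (Cdkn1a) to 81.2% (Rb1) G or C, against a median of 51.2% over all windows. Whether either factor acts on these genes was not tested.
Cdk4, chr7:64771203-64771452, plus strand: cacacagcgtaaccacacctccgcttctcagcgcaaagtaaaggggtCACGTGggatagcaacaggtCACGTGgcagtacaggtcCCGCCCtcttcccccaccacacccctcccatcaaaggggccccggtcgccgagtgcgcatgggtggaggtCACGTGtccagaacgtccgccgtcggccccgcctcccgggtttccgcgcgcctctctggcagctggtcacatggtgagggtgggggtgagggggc
Rb1, chr15:54911858-54912107, minus strand: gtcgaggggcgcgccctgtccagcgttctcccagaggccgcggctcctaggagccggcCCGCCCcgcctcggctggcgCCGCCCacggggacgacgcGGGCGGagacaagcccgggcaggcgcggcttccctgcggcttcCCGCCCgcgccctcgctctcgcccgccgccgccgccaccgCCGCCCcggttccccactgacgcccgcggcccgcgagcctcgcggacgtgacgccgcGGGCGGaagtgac

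Scaling between libraries affects all of these values in common. When each library was instead scaled by its spike-in reads, the median log2 difference over all genes stood at 0.94, and 20 genes were called higher (0.151%) and 4 lower (0.0302%). Of the 10 genes described, edgeR called 0 on this scale, and 3 had an unadjusted p below 0.05. The log2 fold changes were then -0.58 for Cdkn1a (-1.53 relative to that median), -1.22 for Cdkn1c (-2.16), 0.07 for Cdkn2a (-0.88) and -0.19 for Cdkn2b (-1.14), so the direction of Cdkn2a on this scale was the opposite. Those of Cdk6 and Rb1 were 2.59 and 1.94. Adjusted p-values of the 10 genes under this scaling ran from 0.0814 (Cdk6) to 0.918 (Cdkn2a) by edgeR. Relative to the median, all 6 kept the side of 0 that they had under TMM. Taking off the median largely restores the TMM scale, so this is no separate check of direction.

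Counted per 1000000 spike-in reads of the same library, Cdkn1c had 106 to 174 reads in Sirt6-Ctrl and 39.2 to 92.1 in Sirt6-KD, without overlap. On this scale 0.325% of all genes tested lay lower in every Sirt6-KD library and 43.0% higher, and the groups of the other 5 inhibitors overlapped. Cdkn1a had 6372 to 15404 in Sirt6-Ctrl and 5899 to 9863 in Sirt6-KD. Cdk4 had 1875, 1035, 4285 and 3240 in S1 to S4 and 6209 to 7008 in Sirt6-KD. Cdk6 had 45.9, 21.7, 409.6 and 355 in S1 to S4 and 958 to 1892 in Sirt6-KD, and Rb1 had 105, 117, 849.6 and 560.2 in S1 to S4 and 1470 to 1657 in Sirt6-KD. Ccnd1, which overlapped between the groups in CPM, had 4728 to 21425 in Sirt6-Ctrl and 22468 to 30319 in Sirt6-KD. On this scale S1 and S2 were far below S3 and S4 for the kinases, Ccnd1 and Rb1, and these values are given as measured, with no test.

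**Figure D2:**
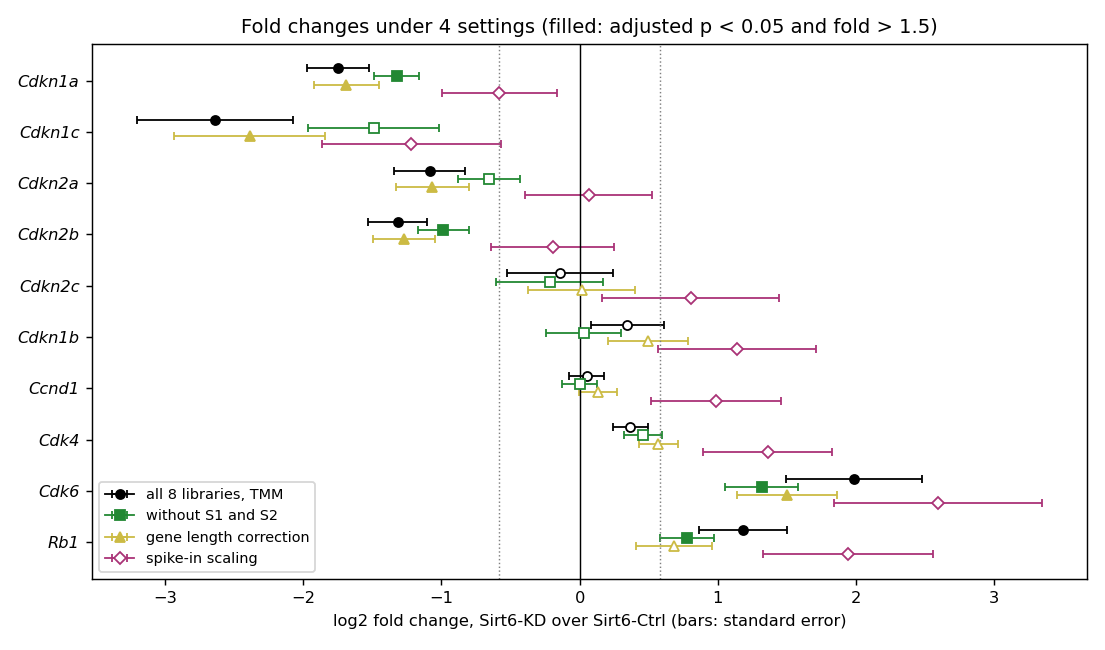
Log2 ratio of Sirt6-KD to Sirt6-Ctrl for each gene (x axis, bars 1 standard error) with all 8 libraries and TMM, without S1 and S2, after a correction for gene length and with spike-in scaling; filled marks passed an adjusted p below 0.05 and a fold above 1.5, and dotted lines mark that fold. With spike-in scaling every mark shifts to the right and is open, and without S1 and S2 the marks of Cdkn1a, Cdkn2b, Cdk6 and Rb1 are closer to 0 and filled.

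Ratios of reads of 2 genes within 1 library do not depend on how libraries are scaled, and are given as descriptions, with no test. Each pair was drawn from the genes described and holds at least 1 gene called above, so separation was likely beforehand. The share of separated pairs among other genes was not computed. Cdk6 had 0.0245, 0.0210, 0.0956 and 0.110 reads per Cdk4 read in S1 to S4 and 0.142, 0.154, 0.277 and 0.170 in S5 to S8. The groups did not overlap, and the geometric means differed 3.72-fold, with more Cdk6 reads per Cdk4 read in Sirt6-KD. Cdkn1a had 9.28, 11.2, 2.4995 and 6.16 reads per Cdkn1b read in S1 to S4 and 1.33, 1.16, 1.18 and 2.31 in S5 to S8. The highest Sirt6-KD value, that of S8, was close to that of S3. Ccnd1 had 0.742 to 1.39 reads per Cdkn1a read in Sirt6-Ctrl and 3.07 to 3.81 in Sirt6-KD, and Cdk4 had 2.95 to 6.80 reads per Cdkn2a read in Sirt6-Ctrl and 7.85 to 10.6 in Sirt6-KD. Neither of these ratios overlapped between the groups. The ratio of Cdkn2a to Cdkn2b reads overlapped, with 0.329 to 0.495 in Sirt6-Ctrl and 0.403 to 0.645 in Sirt6-KD.

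**Figure D3:**
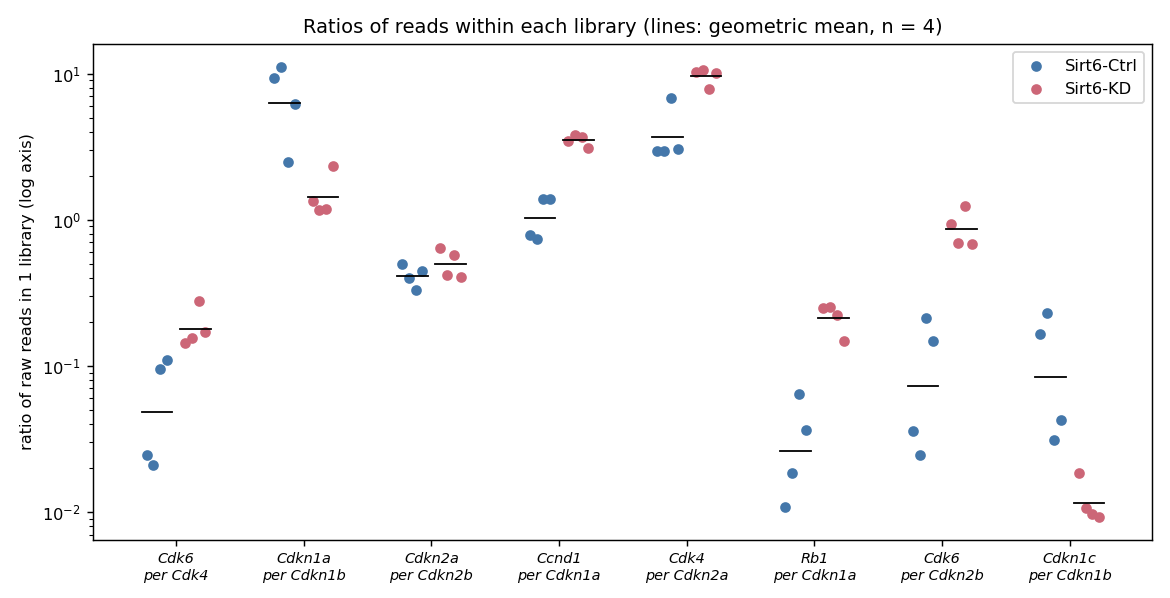
Ratio of raw reads of 2 genes within each library (y axis, log scale) for 8 pairs; points are libraries and lines geometric means (n = 4 per group). The groups are separated for every pair shown but Cdkn2a per Cdkn2b, whose values lie between 0.329 and 0.645 in all libraries. Each pair includes a called gene, and the share of separated pairs among other genes was not computed.

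Genes around these 10 in the same pathway were read from 7 lists of 103 genes, of which 101 had a row and were tested, 10 were called higher (9.9%, against 8.02% of all genes tested) and 9 lower (8.91%, against 10.7%), shares near those of all genes. There were 7 called higher and 4 lower without S1 and S2, and with spike-in scaling edgeR called 0. Their median log2 fold change was 0.18, against -0.02 over all genes tested. Cdkn2d, the remaining INK4 gene, and Cdk3 were not analysed here. In the list of other G1/S cyclins and kinases, 1 of 11 genes was called, Cdc37, the chaperone that helps fold CDK4, which fell from 397 ± 124 to 243 ± 13.8 CPM (SD over 4 libraries each), a log2 difference of -0.71 with an edgeR adjusted p of 0.0320. S1 and S2 were its highest libraries, and without them it was not called (-0.28, adjusted p = 0.122, edgeR). Ccnd2, Ccnd3, Ccne1, Ccne2, Ccna2, Cdk2 and Cdc25a were among the 10 not called. Of 18 pocket protein, E2F and DREAM complex genes, edgeR called 0, with 2 at an unadjusted p below 0.05, while DESeq2 called 1 higher and limma-voom 0. Of 3 relatives of the inhibitors, Cdkn3, Cdkn2aip and Cdkn2aipnl, edgeR, DESeq2 and limma-voom called 0, and 0 had an unadjusted p below 0.05 by edgeR.

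Of 21 E2F target genes of S phase, 2 were called higher (9.52%, against 8.02% of all genes tested) and 1 lower (4.76%, against 10.7%), with a median log2 fold change of 0.33. DESeq2 and limma-voom each called 4 higher and 1 lower, and without S1 and S2 edgeR called 1 and 1. Mki67, the proliferation antigen, had 5.34, 4.73, 21.0 and 18.7 CPM in S1 to S4 and 43.4, 40.9, 43.0 and 44.4 CPM in S5 to S8. As for Cdk6, S1 and S2 were far below S3 and S4, and all Sirt6-KD libraries were above both pairs (log2 difference 1.79 ± 0.45 (SE), edgeR adjusted p = 0.0199). Mcm2, of the replicative helicase, rose with a log2 fold change of 0.61 (adjusted p = 0.0242, edgeR), and Gins2, of the same helicase complex, fell with one of -0.82 (adjusted p = 0.0182, edgeR). The other helicase genes Mcm3, Mcm4, Mcm5, Mcm6 and Mcm7 were not called, nor was Mcm2 without S1 and S2 (0.52, adjusted p = 0.0727, edgeR).

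Of 20 transcriptional regulators of the inhibitors, 6 were called higher and 3 lower (8.02% and 10.7% of all genes tested), with a median log2 fold change of 0.52. DESeq2 called 9 higher and 2 lower, limma-voom 9 and 3, and edgeR without S1 and S2 4 and 0. Smad3, which carries TGF-β signals to Cdkn2b and Cdkn1a, had the smallest p of those that rose, from 121 ± 48.0 to 311 ± 27.7 CPM (SD over 4 libraries each), a log2 difference of 1.37 with an edgeR adjusted p of 0.00580. Ezh2, the methyltransferase of the Polycomb complex that silences the Cdkn2a locus, rose from 20.3 ± 0.865 to 33.4 ± 2.17 CPM (SD over 4 libraries each), a log2 difference of 0.72 with an edgeR adjusted p of 0.00887. Of its core partners, Eed fell, with a log2 fold change of -0.62 (adjusted p = 0.0203, edgeR), and Suz12, named after its values were seen, rose, with one of 0.88 (adjusted p = 0.0135, edgeR). Ets1, an activator of Cdkn2a, rose by 0.91 (adjusted p = 0.0125, edgeR), and Id2, whose product binds RB, had a log2 fold change of -0.61 (adjusted p = 0.0101, edgeR). Mdm2, the ubiquitin ligase that p19ARF restrains, fell from 562 ± 107 to 372 ± 46.8 CPM (SD over 4 libraries each), a log2 difference of -0.60 with an edgeR adjusted p of 0.0289. Id2, Eed and Mdm2 were not called without S1 and S2 (-0.47, -0.41 and -0.34, adjusted p = 0.0226, 0.0782 and 0.135, edgeR), while Smad3, Ezh2, Ets1 and Suz12 were.

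Of 16 genes of the ubiquitin ligases that degrade G1 proteins, 3 were called lower (18.8%) and 0 higher by edgeR. Over all genes tested, 10.7% were called lower and 8.02% higher. The list had 6 genes at an unadjusted p below 0.05 and a median log2 fold change of -0.10, and DESeq2 and limma-voom each called 1 higher. The 3 called lower were Skp1 and Rbx1, shared subunits of the SCF ligases (log2 fold changes of -1.25 and -0.90, adjusted p = 0.00249 and 0.0171, edgeR), and Fbxo31, an F-box protein that targets cyclin D1 (-1.24, adjusted p = 0.0105, edgeR). Of 12 genes of mitogen signals to cyclin D1, Fosl1 and Nfkb1 were called higher (16.7% of the list; 1.21 and 0.75, adjusted p = 0.00604 and 0.0205, edgeR), and Jun lower (8.33%; -1.25, adjusted p = 0.00143, edgeR). Fosl1 and Jun encode partners of the same AP-1 dimer. Rbx1 and Nfkb1 were not called without S1 and S2 (-0.55 and 0.51, adjusted p = 0.0374 and 0.0527, edgeR), and the other 4 genes named here were.

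**Figure D4:**
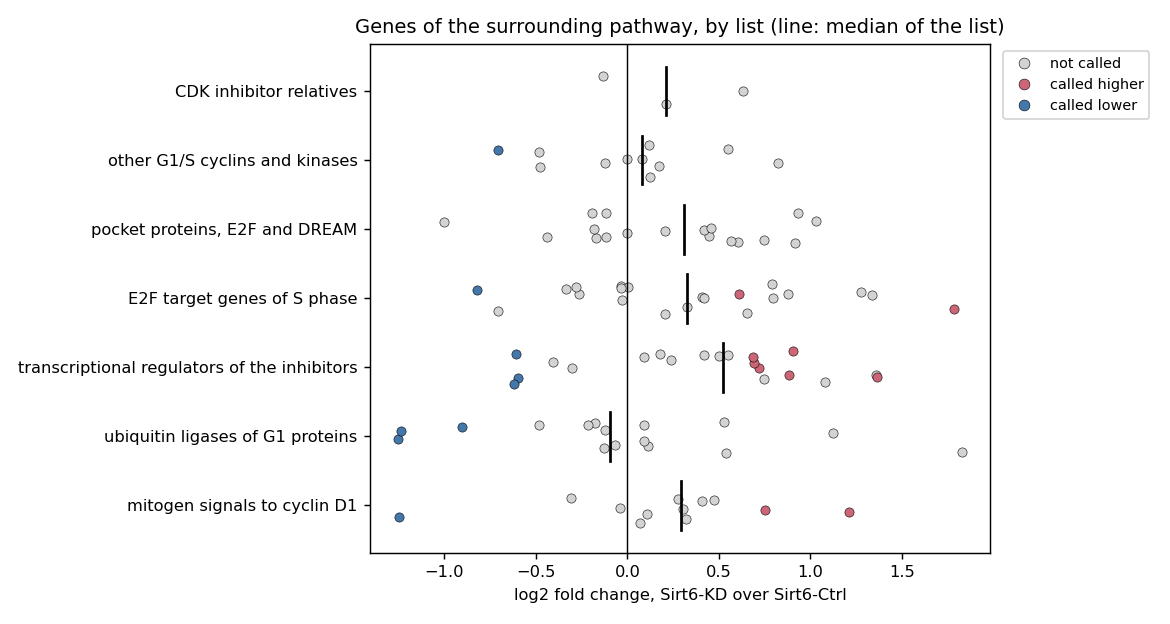
Log2 ratio of Sirt6-KD to Sirt6-Ctrl (x axis) of each tested gene of the 7 lists (y axis; points are spread vertically for visibility), coloured by call, with the median of each list as a line. The list medians lie between -0.10 and 0.52, and over the 7 lists 10 of 101 genes were called higher and 9 lower.

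Genes whose log2 CPM followed each called gene most closely over the 8 libraries were found by Pearson's r, whose points share groups and libraries, given without a test. Cdkn1a was followed most closely by Tmub2, Golgb1 and Chmp7 (r = 0.999, 0.997 and 0.996), Cdkn2b by Polr3k, Panx1 and Chtf8 (0.996, 0.994 and 0.993), Cdkn2a by Uqcrh, Tmub1 and Mrpl34 (0.990, 0.986 and 0.984) and Cdkn1c by Pip4p1, Thap11 and Zfyve1 (0.995, 0.993 and 0.991). Cdk6 was followed most closely by Slc39a14, Pde4b and Socs3 (0.994, 0.993 and 0.993), and Rb1 by Enah, AABR07021465.2 and Sox11 (0.997, 0.995 and 0.993). No gene of the pathway lists was among these 18. The lists hold 101 of the 13250 genes tested, so none was likely among any 18 genes.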

How the data were processed

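RNA-seq of 8 libraries was analysed from the raw counts that the authors deposited, in 32975 rows for Ensembl genes and ERCC spike-ins. The submitters' processing notes name Trimmomatic 0.36, STAR 2.5.2b, featureCounts of Subread 1.5.2, DESeq2 and Rnor_6.0. The strand setting and annotation release are not given in the sources used here. The authors' comparison table (log2 fold changes, p-values, normalized values) served for gene names alone.

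Rows with low counts were removed (filterByExpr), libraries were normalized by TMM, and 13250 genes plus the spike-ins were tested with the quasi-likelihood test of edgeR 4.0.16 (R 4.3.3), two-sided, with Benjamini-Hochberg adjustment. Confidence intervals are at 95% from that fit. The script was tested on simulated data. A count of 3 corresponds to 0.0748 to 0.0938 CPM, for counting error only. Gene length was the span in RefSeq (GRCr8), found by symbol for 86.0% of genes.

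Members and lists were chosen with earlier results of these data known. Named list genes were at most the 3 of each direction with the smallest p. Myc, Sp1, Suz12 and the list genes named as not called were chosen after their values were seen. Alternatives were other filters, tests (DESeq2 1.42.0, limma-voom 3.58.1), scalings, a fold threshold left out, a length correction (loess, span 0.5) and libraries left out.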

Additional observations from a re-analysis of the deposited data

Results flagged for a closer look

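In a group of 4 libraries, a library was singled out where its gap to the nearest other, as a share of the group's range, exceeded Dixon's 95% critical value. Of 54 groups over 27 genes, 6 held such a library. In independent, unselected groups about 1 in 20, or 2.7, would be singled out. These groups share the same libraries, and the list genes among them were named for small p-values. No conclusion is therefore drawn from the count. S3 was the highest Sirt6-Ctrl library for Cdkn1b (0.933 of the range), and the call of Cdkn1b changed without it. S4 was the lowest Sirt6-Ctrl library for Cdk4 (0.892), and S7 the highest Sirt6-KD library for Cdk6 (0.83), which was not called without it. S8 was the lowest Sirt6-KD library for Mcm2 (0.907). For Jun, S1 was the highest Sirt6-Ctrl library (0.865) and S7 the highest Sirt6-KD library (0.833), although the highest Sirt6-KD level, 113 CPM, was below the lowest of Sirt6-Ctrl, 219.9 CPM.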

How the results depend on the processing

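No paired analysis was possible because the labels and count columns do not say which control and knockdown libraries came from the same rat. Main counts were 1063 genes higher and 1416 lower, with 2 and 4 of the 10 genes. With spike-in scaling they were 20 and 4, with 0 and 0 of the 10; without S1 and S2, 709 were lower, with 2 of the 10; with the length correction, 642 were higher (1687 lower), with 1 of the 10. Leaving out 1 library gave 445 to 1699 higher and 700 to 1913 lower, with 0 to 3 and 3 to 4 of the 10; 0 higher came without S7 and 3 without S3. DESeq2 called 1507 and 1652, and limma-voom 1591 and 1309. Signs turned for Cdkn2a with spike-in scaling (0.066) and for Cdkn2c with spike-in scaling (0.80), with the length correction (0.014) and without S4 (0.15, in a range of -0.33 to 0.15 over the fits that omit 1 library); the cause was not tested. Over 16 alternatives Cdkn1a and Cdkn2b lost their call once each, with spike-in scaling, Cdkn1c and Cdk6 3 times each, Cdkn2a 5 and Rb1 5 times; adjusted p ranged from 1.04e-11 to 0.306 for Cdkn1a and from 0.00274 to 0.0999 for Rb1. Cdkn1c, with 28 to 73 reads in Sirt6-KD, is the gene most limited by depth.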
